A study of Mus musculus with 96 samples.

Results

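Antimycin and piericidin were compared directly in 6 of the 96 RNA-seq samples of the series: 3 control myoblast samples treated with antimycin and 3 treated with piericidin, chosen by their labelled cell line and treatment. The cells were proliferating C2C12 myoblasts, a mouse muscle precursor line, that stably carried luciferase under the doxycycline-inducible TRE3G promoter in place of a redox enzyme. All 6 samples, and the 3 DMSO samples of the same line used for the untreated level, were kept in 300 ng/ml doxycycline and were collected after 10 hr. Both inhibitors were used at 0.5 µM, a single concentration each, in media that lacked pyruvate and uridine. Differences between the site and the extent of the block therefore cannot be told apart. The same contrast was also taken in myoblasts carrying doxycycline-inducible LbNOX, a bacterial NADH oxidase that acts in the cytosol, in myoblasts carrying mitoLbNOX, its mitochondrial form, and in untransduced myotubes, with 3 samples per inhibitor in each. The redox-modified myoblasts were also kept in 300 ng/ml doxycycline. The myotubes were differentiated in low serum, with no transgene and no doxycycline. Cell state, serum, transgene and doxycycline therefore cannot be told apart where myotubes are set against control myoblasts.

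Piericidin blocks complex I of the respiratory chain, where NADH hands its electrons to ubiquinone, and antimycin blocks complex III, where reduced ubiquinone is reoxidized. A complex I block leaves other enzymes free to pass electrons to ubiquinone, among them succinate dehydrogenase, glycerol 3-phosphate dehydrogenase, proline dehydrogenase and dihydroorotate dehydrogenase, which makes pyrimidines, whereas a complex III block holds up all of them. Both blocks are known to raise NADH and to trigger the integrated stress response (ISR), in which eIF2α kinases slow translation and raise the transcription factor ATF4 and its target genes.

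The 6 samples held between 9765471 and 11718849 estimated counts. Myoblast markers such as Myod1 and Des summed to between 732 and 740 CPM (counts scaled to a common library total) with piericidin and between 895 and 964 CPM with antimycin, with none of the 6 at 0. Of the 6 adipocyte markers, Adipoq, Cidec and Cfd were at 0 in all 6 samples. The 6 endothelial and blood cell markers summed to 3.02 to 4.71 CPM with piericidin and 6.55 to 7.68 CPM with antimycin, with Cd3e at 0 throughout, and the 6 osteoblast and cartilage markers to 1.74 to 4.72 and 0.578 to 0.597 CPM, with Ibsp at 0. Their part in the cytokine and matrix results was not tested. The 6 epithelial and neural markers summed to between 116 and 130 CPM with piericidin and between 52.6 and 59 CPM with antimycin, with Rbfox3 at 0 throughout and nearly all of the sum from Tubb3, a tubulin gene. The transgene itself held 1964 to 2574 counts with piericidin and 736 to 1039 with antimycin (log2 fold change -1.30 ± 0.13 (SE), adjusted p = 2.41e-06). Its part in the results was not tested. The replicate 2 piericidin sample and all DMSO samples carry a plate code in an outer row or column, and the other 5 inhibitor samples do not. The labels do not say that replicates were separate cultures, so p-values measure the spread between these samples, which may be technical.

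In this comparison 2310 of 11981 genes were higher with antimycin and 2145 were lower at an adjusted p under 0.05 (edgeR quasi-likelihood test with Benjamini-Hochberg adjustment, used for all adjusted p-values below), which is 19.3% and 17.9% of the genes tested. At least 2-fold differences were seen for 393 genes that were higher (3.28%) and 302 that were lower (2.52%). Genes that pass the adjusted p are called below, and "called at least 2-fold" adds the fold. The median log2 fold change over all genes tested was 0.02. Against the shared DMSO samples, antimycin had 63.2% of genes called and piericidin 61.7%. The 12 largest increases included the growth factor gene Pgf, the tissue factor gene F3, the nuclear receptor gene Nr4a1, the chemokine genes Ccl4 and Cxcl10 and the protease gene Pappa. These 12 had to reach a mean of 50 normalized counts in the higher group only. Pappa had 9.62, 0 and 2.24 with piericidin and 56.4, 46.7 and 52.6 with antimycin, and Ccl4 had 3.61, 7 and 3.36 against 48, 68.3 and 40.3. The 12 largest decreases included the amino acid transporter Slc7a3, the actin-binding protein gene Avil and the kinase gene Dyrk4.

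Genes of TGF-β signaling and of the ID family were higher with antimycin in 10 of 13 tested members and lower in none, with a median log2 fold change of 0.61. Inhba, which encodes a subunit of activin, had 3913, 3637 and 3785 normalized counts with piericidin and 13625, 13315 and 13048 with antimycin. All 3 antimycin samples were above all 3 piericidin samples, and the DMSO samples, at 563 to 595, were below both (antimycin over piericidin, log2 fold change 1.83 ± 0.06 (SE), adjusted p = 4.82e-20). The ligand gene Tgfb2 rose from 129 to 156 normalized counts across the piericidin samples to between 446 and 519 across the antimycin samples (log2 fold change 1.73 ± 0.16, adjusted p = 2.43e-10).

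YAP targets, the genes that the co-activator YAP switches on through TEAD factors, were higher in 7 of 10 tested members and lower in none. Ctgf (GRCm38 chr10:24595442-24598683, plus strand), which encodes the matricellular protein CCN2, had 6721, 6467 and 6226 normalized counts with piericidin and 28703, 24584 and 25256 with antimycin. Cyr61, its relative CCN1, had 8143, 8741 and 8665 against 30038, 30340 and 30555. Neither gene's groups overlapped, and for both the DMSO samples were the lowest, at no more than 1992 for Ctgf and 4586 for Cyr61. F3, which encodes tissue factor, the starter of blood clotting, rose by 2.55 ± 0.13 on the log2 scale (adjusted p = 3.22e-16).

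Collagens and other matrix genes were higher in 13 of 18 tested members and lower in 1. Thbs1, the gene of the matrix protein thrombospondin 1, had 5750, 5759 and 5405 normalized counts with piericidin and 18874, 18611 and 17116 with antimycin. The DMSO samples, at 8946 to 9287, lay between the inhibitor groups. Col6a1, a collagen VI chain, rose by 1.06 ± 0.11 on the log2 scale and Postn, which encodes periostin, by 1.60 ± 0.44, with adjusted p-values of 5.19e-09 and 0.00409. The exception was Tnc, which encodes tenascin C and fell from a mean of 8519 ± 329 normalized counts (SD, n = 3) to 5785 ± 537.

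**Figure D1:**
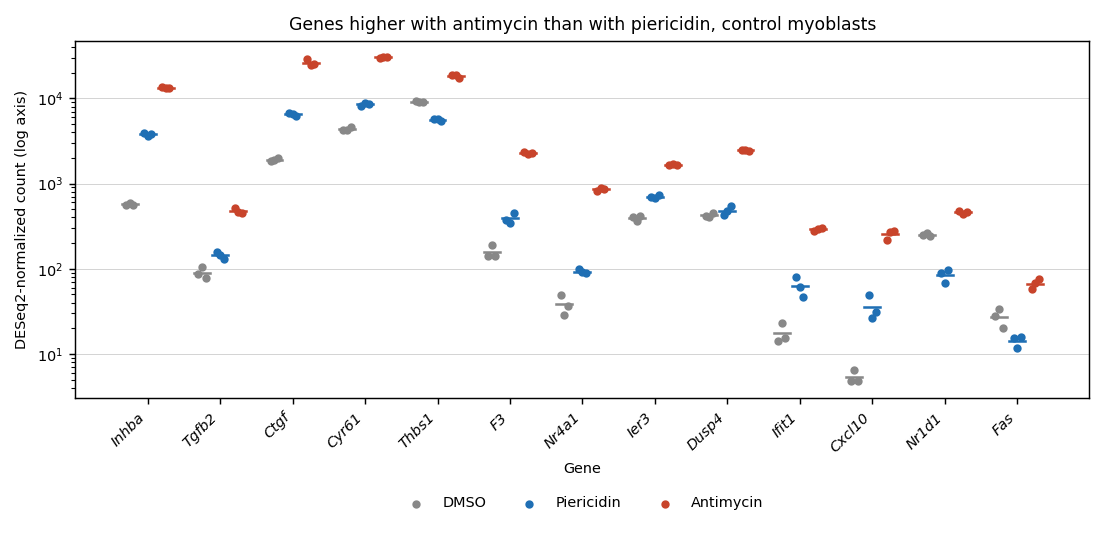
DESeq2-normalized counts on a log axis for 13 genes in the 9 control myoblast samples, with 3 points per treatment and a line at each mean. For all 13 genes the 3 antimycin points sit above the 3 piericidin points, while the DMSO points of Thbs1, Nr1d1 and Fas lie between the inhibitor groups.

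To show what the YAP target promoters hold, RefSeq promoter windows (GRCm38.p6, 250 bases before to 50 after a start) were searched on both strands for GGAATG, the core that TEAD factors bind, a motif picked after the values were seen. It was found in 6 of the 8 windows of the YAP targets, which cover 7 of the 10 genes, in 14.7% of all 32851 windows and in 11.8% of the 11307 windows of tested genes. Overlaps between the motifs searched were not removed. One upstream match is shown for each of 5 genes, 5′ to 3′ on the gene's strand, with the match, on either strand, in capitals.
Ankrd1, chr19:36119952-36119977, minus strand: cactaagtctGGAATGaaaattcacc
Crim1, chr17:78200159-78200184, plus strand: ggcgggggggGGAATGaggtaggatg
Axl, chr7:25788951-25788976, minus strand: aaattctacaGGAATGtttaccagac
Amotl2, chr9:102717729-102717754, plus strand: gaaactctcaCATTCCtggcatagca
Ajuba, chr14:54577832-54577857, minus strand: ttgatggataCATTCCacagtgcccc
Of these 5 genes, Ankrd1, which encodes a stretch-responsive muscle protein, rose with antimycin, with a log2 fold change of 1.21 ± 0.06 (adjusted p = 2.98e-16). The receptor genes Crim1 and Axl also rose, by 0.82 and 0.21 on the log2 scale. The scaffold protein genes Amotl2 and Ajuba were not called, at log2 fold changes of -0.09 and -0.20, so promoters with the motif were found among genes that rose and genes that did not pass the test.

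Immediate early genes, which growth factors and stress switch on without new protein synthesis, were higher in 12 of 17 tested members, 5 of them at least 2-fold, and lower in 1. Nr4a1, an orphan nuclear receptor gene, had 98.6, 91 and 88.6 normalized counts with piericidin and 808, 888 and 874 with antimycin. Every antimycin sample was above every piericidin sample (log2 fold change 3.22 ± 0.19, adjusted p = 3.72e-14), and the DMSO samples were the lowest, at 28.4 to 49.5. The AP-1 subunit gene Fosl2 and the survival gene Ier3 rose by 1.34 ± 0.13 and 1.26 ± 0.06. The member that fell was Junb, by 0.16 ± 0.06 on the log2 scale (adjusted p = 0.0371), a call that was lost without antimycin replicate 2 or 3 or piericidin replicate 2. Genes that feed back on MAP kinases were higher in 9 of 13 and lower in 1 (0 without antimycin replicate 3 or piericidin replicate 1), with a median log2 fold change of 1.10. Dusp4, a phosphatase gene of the ERK pathway, had 426, 478 and 544 normalized counts with piericidin and 2487, 2462 and 2441 with antimycin, against 406 to 451 with DMSO. The piericidin and DMSO samples of Dusp4 thus overlapped in range, and the antimycin samples stood apart from both. Dusp8 and Dusp10, phosphatase genes of the JNK and p38 pathways, rose by 1.65 ± 0.18 and 1.28 ± 0.12.

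Clock genes were higher in 7 of 13 tested members and lower in 1. Nr1d1, which encodes the repressor REV-ERBα, had 89, 68.8 and 96.4 normalized counts with piericidin and 481, 434 and 463 with antimycin, and its DMSO samples, at 243 to 262, lay between. Bhlhe40, the gene of the repressor DEC1, rose by 1.56 ± 0.09, and Dbp, a clock output factor gene, by 1.42 ± 0.41 on the log2 scale. Cry2, a repressor of the core loop, fell by 0.45 ± 0.13 (adjusted p = 0.00712). The calls of Dbp and Cry2 were lost without piericidin replicate 2. The E-box CACGTG, which CLOCK and BMAL1 bind, was in 5 of 16 clock gene windows, in 7.15% of all windows and in 10.2% of those of tested genes. Of the 4 clock genes with the E-box, 2 rose and the others were not called. Only 2 of the 6 rising clock genes with a window held it. Per1, a repressor gene with log2 fold change 1.14, holds one at chr11:69098773-69098798 on the plus strand.
Per1: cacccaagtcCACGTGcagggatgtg

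Cytokine and chemokine genes were higher in 8 of 14 tested members and lower in none. Cxcl10, an interferon-induced chemokine gene, had 49.3, 26.8 and 31.4 normalized counts with piericidin and 220, 267 and 277 with antimycin. The groups did not overlap, and the DMSO samples were the lowest, at 4.76 to 6.57. The monocyte chemokine genes Ccl2 and Ccl7 rose by 2.18 ± 0.23 and 2.52 ± 0.38 on the log2 scale. Ccl2 had 117 to 146 normalized counts with DMSO, 7.22 to 15.2 with piericidin and 45.5 to 59.5 with antimycin, so that piericidin was the lowest group. Interferon-response genes were higher in 6 of 11 and lower in 1, which was Irf1, an interferon-induced factor gene (log2 fold change -0.83 ± 0.16). Ifit1, whose product binds viral RNA, had 79.4, 61.8 and 47.1 normalized counts with piericidin and 278, 290 and 301 with antimycin. Rsad2 and Ifit3, other antiviral genes, stayed under 70 normalized counts in every sample, and both rose, Rsad2 by 3.30 ± 0.65 on the log2 scale. Reads of the Ifit, Serpinb, Ifi and Hspa1 families can be split between near-identical copies, so values of single members are uncertain.

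**Figure D2:**
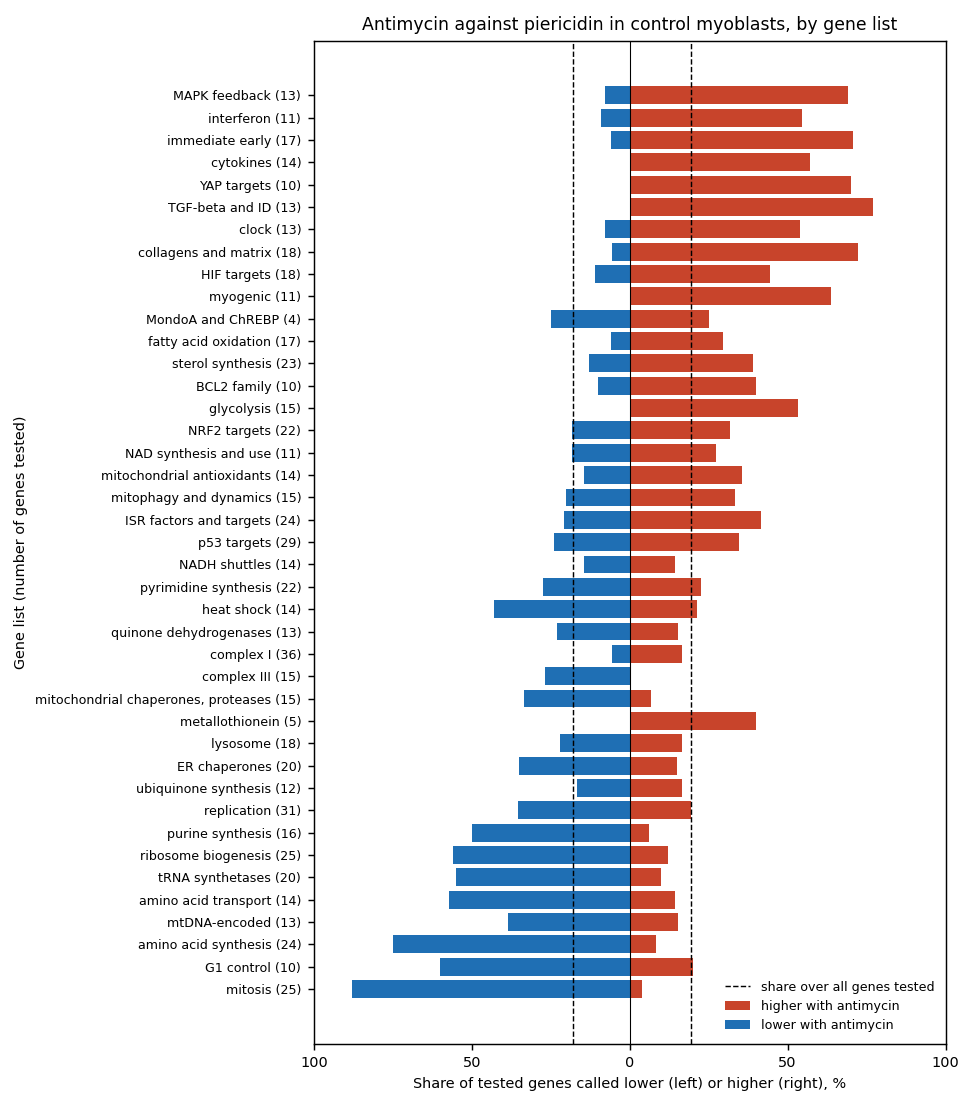
Share of the tested genes of each of 41 gene lists that were called lower (left) or higher (right) with antimycin than with piericidin in control myoblasts, ordered by the median log2 fold change, with dashed lines at the shares over all genes tested (17.9% and 19.3%). Mitosis, with 22 of 25 lower, is at the bottom, and MAPK feedback, with 9 of 13 higher, is at the top.

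Of 24 tested ISR transcription factors, feedback genes and secreted targets, 10 were higher with antimycin (41.7%, beside 19.3% of all genes) and 5 were lower (20.8%, beside 17.9%), with a median log2 fold change of 0.07. Gdf15 (chr8:70629393-70632456, minus strand), a stress hormone gene, had 1592, 1793 and 1689 normalized counts with piericidin and 5180, 4984 and 5008 with antimycin. The DMSO samples had 48.6 to 61.3, so both inhibitor groups were far above them and the antimycin group was the highest (log2 fold change 1.59 ± 0.09 over piericidin, adjusted p = 2.07e-14). Atf3, a stress factor gene, had 1642, 1760 and 1565 normalized counts with piericidin and 3292, 3672 and 3486 with antimycin. Atf4, the central factor of the response, had 12345, 12898 and 12991 against 16329, 17150 and 16224, a smaller difference (log2 fold change 0.39 ± 0.03) with no overlap. Ddit3, the gene of CHOP, rose by 0.63 ± 0.06, the glutathione-degrading enzyme gene Chac1 by 0.84 ± 0.09 and the pseudokinase gene Trib3 by 0.57 ± 0.07. The lower members included Vldlr, a lipoprotein receptor gene, Adm2, a peptide hormone gene, and Atf5, an ATF4-related factor gene, at log2 fold changes of -1.10 ± 0.15, -1.04 ± 0.16 and -0.95 ± 0.28. Fgf21, the other ISR hormone gene, had 376, 421 and 411 normalized counts with piericidin and 326, 282 and 330 with antimycin. All of its antimycin samples were below all of its piericidin samples, but it was not called (log2 fold change -0.35 ± 0.25, adjusted p = 0.294). Under 1 alternative Fgf21 was called.

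Genes of amino acid synthesis, many of them ATF4 targets, were lower with antimycin in 18 of 24 tested members and higher in 2, with a median log2 fold change of -0.37. Pycr1 (chr11:120635712-120643769, minus strand), the last enzyme of proline synthesis, had 376, 454 and 411 normalized counts with piericidin and 138, 114 and 122 with antimycin. Its DMSO samples, at 119 to 137, overlapped the antimycin samples and not the piericidin samples (antimycin over piericidin, log2 fold change -1.72 ± 0.09, adjusted p = 1.54e-15). Cth, which makes cysteine from cystathionine, had 2759, 2765 and 2708 normalized counts with piericidin and 1071, 1000 and 948 with antimycin, both above its 113 to 131 with DMSO. Psph, the last enzyme of serine synthesis, had 4230, 4418 and 4419 against 2028, 2246 and 2093. Asns, the asparagine synthetase gene, had 7734, 8407 and 7749 against 6083, 6417 and 6053, a smaller difference with no overlap. The members that rose were Glul, the glutamine synthetase gene, by 0.57 ± 0.11, and the mitochondrial folate enzyme gene Mthfd2, by 0.39 ± 0.04.

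Amino acid transporters were lower in 8 of 14 tested members and higher in 2. The glutamine carrier gene Slc1a5 had 669, 707 and 642 normalized counts with piericidin and 248, 265 and 247 with antimycin, and its DMSO samples, at 225 to 273, spanned the antimycin range. Slc7a11, the cystine carrier gene, fell by 1.15 ± 0.17 and Slc7a3, a cationic amino acid carrier gene, by 3.11 ± 0.57. Slc7a3 had 45.5 to 58.3 normalized counts with piericidin and only 1.04 to 11 with antimycin. The members that rose were Slc38a7 and Slc7a1, glutamine and arginine carrier genes, by 0.52 and 0.34 on the log2 scale. Cytosolic tRNA synthetases were lower in 11 of 20 and higher in 2, with Wars, Rars and Lars, which charge tryptophan, arginine and leucine tRNAs, at log2 fold changes of -0.63, -0.57 and -0.56. Ribosome biogenesis genes were lower in 14 of 25 and higher in 3, with the pre-rRNA processing gene Wdr12 at -0.71 ± 0.09. Purine synthesis genes were lower in 8 of 16 and higher in 1 (2 without piericidin replicate 1), with Hprt, the salvage enzyme gene, at -0.49 ± 0.07 and Gart, an enzyme gene of the de novo pathway, at -0.47 ± 0.07.

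**Figure D3:**
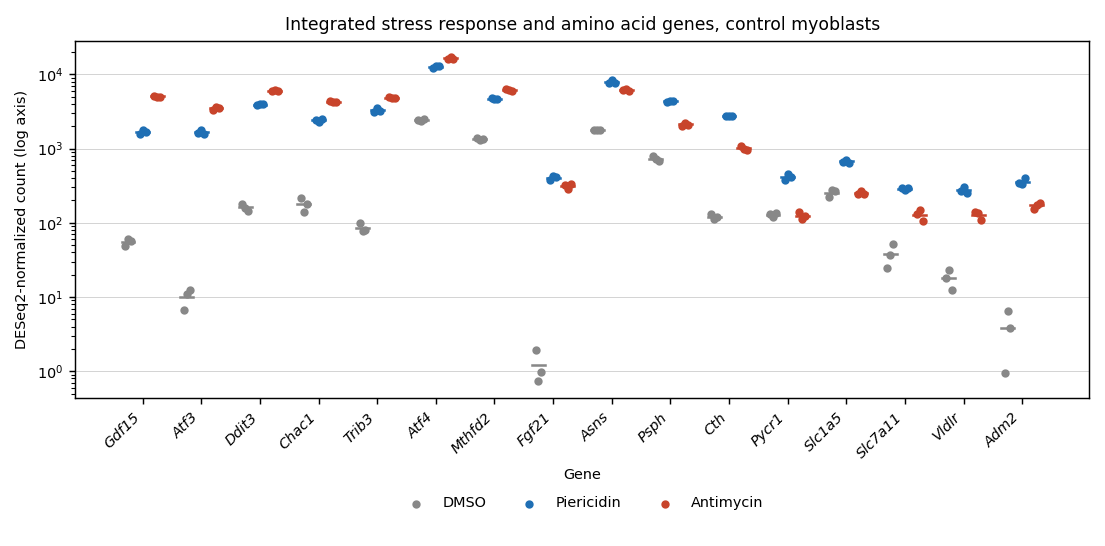
DESeq2-normalized counts on a log axis for 16 ISR and amino acid genes in the 9 control myoblast samples, with 3 points per treatment and a line at each mean. From Gdf15 to Mthfd2 the antimycin points sit above the piericidin points, and from Fgf21 to Adm2 they sit below.

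The C/EBP-ATF response element TGATGNAAT, to which ATF4 binds with a partner, was present in 0.965% of all promoter windows and in 0.416% of the 11307 windows of tested genes, searched on both strands. It was in 2 of 28 windows of the ISR list, 1 of 22 of amino acid synthesis, 0 of 14 of amino acid transport and 3 of 12 of the tRNA synthetases. Of these matches 4, all upstream of a start, are shown with the element in capitals, 5′ to 3′ on the gene's strand, so that the element and the antimycin difference can be set side by side.
Pycr1, chr11:120643833-120643861, minus strand: gccctgtgtaTGATGCAATgcacaaggct
Nupr1, chr7:126625563-126625591, minus strand: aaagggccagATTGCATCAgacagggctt
Gars, chr6:55037960-55037988, plus strand: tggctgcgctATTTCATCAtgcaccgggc
Fgf21, chr7:45615612-45615640, minus strand: agacccccccATTGCATCAtccgtccagg
Pycr1, the stress-induced chromatin protein gene Nupr1 and the glycyl-tRNA synthetase gene Gars were lower with antimycin, at log2 fold changes of -1.72, -0.60 and -0.21. Fgf21 was not called (-0.35 ± 0.25, adjusted p = 0.294). Iars, the isoleucyl-tRNA synthetase gene, also holds the element in its window, in a match not shown, and rose by 0.20 ± 0.06 (adjusted p = 0.00444). The element was thus found in genes called in each direction and in genes not called. Of the 9 genes of the ISR list that rose and had a window, none held it there.

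Pyrimidine genes were higher in 5 of 22 tested members and lower in 6, close to the shares over all genes. Dhodh, the ubiquinone-linked enzyme of the pathway, had 262, 300 and 262 normalized counts with piericidin and 182, 220 and 163 with antimycin, with no overlap and with DMSO samples at 167 to 199 (antimycin over piericidin, log2 fold change -0.53 ± 0.11, adjusted p = 0.000153). Umps, which makes UMP, fell by 0.35 ± 0.07. Cad, which starts the pathway, did not pass the test (0.03 ± 0.06), and neither did Uck2, the uridine kinase gene, at -0.09 ± 0.47. The Uck2 samples spread widely, at 820, 482 and 1208 normalized counts with piericidin and 740, 437 and 1165 with antimycin. The strongest rise on the list, at 2.63 ± 0.69, was of Cmpk2, a mitochondrial nucleotide kinase gene that interferon also induces.

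Targets of p53 were higher in 10 of 29 tested members (34.5%, beside 19.3% of all genes) and lower in 7 (24.1%, beside 17.9%). The lower count was 4 without piericidin replicate 2. Fas, a death receptor gene, had 15.6, 11.7 and 15.7 normalized counts with piericidin and 57.4, 68.3 and 75.8 with antimycin, and its DMSO samples, at 20.3 to 33.6, lay between. Pmaip1, the gene of the BH3-only protein NOXA, rose by 1.41 ± 0.10 and Mdm2, the ubiquitin ligase gene that limits p53, by 0.64 ± 0.06. Cdkn1a, the gene of the cell cycle inhibitor p21, fell by 0.25 ± 0.05, from a mean of 2435 ± 45.8 normalized counts (SD, n = 3) to 2025 ± 70.8. Trp53inp1, a p53-induced nuclear protein gene, was not called (0.08 ± 0.28), and Trp53 itself fell from 2687 to 2806 normalized counts with piericidin to 1688 to 1815 with antimycin.

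Of 13 tested genes of the enzymes that feed ubiquinone, 2 were higher and 3 were lower. These shares, 15.4% and 23.1%, were near the 19.3% and 17.9% of all genes. Prodh, the proline dehydrogenase gene, had 69.8, 91 and 84.1 normalized counts with piericidin and 43.8, 38.3 and 56.2 with antimycin (log2 fold change -0.81 ± 0.17). Sdha and Etfdh, the genes of succinate dehydrogenase subunit A and of the electron transfer flavoprotein dehydrogenase, rose by 0.18 and 0.27, while Gpd2 and Sqor, the genes of glycerol 3-phosphate dehydrogenase and of the sulfide oxidase, were not called. The call of Etfdh was lost with any 1 sample other than piericidin replicate 2 left out, and that of Sdha without antimycin replicate 2. Gpd2 was called under 2 alternatives. Nuclear complex I genes were higher in 6 of 36 (16.7%) and lower in 2 (5.56%). Without antimycin replicate 2 the counts were 3 higher and 4 lower. The lower count was 0 and 1 without antimycin replicate 1 and piericidin replicate 1, respectively. Complex III genes were higher in none of 15 and lower in 4 (26.7%), with the assembly factor gene Uqcc3 at -0.96 ± 0.22. The complex III genes Uqcrc1 and Cyc1 were not called, at 0.08 ± 0.05 and -0.01 ± 0.04, though Uqcrc1 was called under 1 alternative. Of 13 mitochondrially encoded transcripts 2 were higher (15.4%) and 5 were lower (38.5%). The higher count was 1 without antimycin replicate 1 or 2 or piericidin replicate 3. mt-Nd5, a complex I subunit gene, had 4263, 3693 and 3257 normalized counts with piericidin and 2742, 2502 and 2449 with antimycin, and mt-Cytb, the only complex III subunit of the mitochondrial genome, fell by 0.28 ± 0.08, a call that was lost without antimycin replicate 3 or piericidin replicate 1. The transcript mt-Co1, a complex IV subunit gene, rose by 0.33 ± 0.08.

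Mitosis genes were lower with antimycin in 22 of 25 tested members and higher in 1 (2 without piericidin replicate 2), with a median log2 fold change of -0.45. Plk1, a mitotic kinase gene, had 1130, 1144 and 1012 normalized counts with piericidin and 516, 637 and 677 with antimycin. Top2a, the topoisomerase II gene, had 3086, 3330 and 3001 against 1971, 1977 and 1808, and Kif20a, a kinesin gene, had 2054, 2062 and 1947 against 1145, 1196 and 1136. All 3 were highest with DMSO and lowest with antimycin, without overlap between the inhibitors. The member that rose was Ccnb2, the cyclin B2 gene, by 0.30 ± 0.07. Replication genes were lower in 11 of 31 (35.5%, beside 17.9% of all genes) and higher in 6 (19.4%, beside 19.3%). The uracil glycosylase gene Ung and the origin licensing gene Cdc6 fell by 2.19 ± 0.30 and 1.07 ± 0.11, while the licensing factor gene Cdt1 and the polymerase α gene Pola1 rose by 0.56 and 0.46. Of 10 tested genes of G1 control, 6 were lower and 2 higher. Of the G1 cyclins, Ccnd2 fell by 1.01 ± 0.08 and Ccnd1 by 0.52 ± 0.06, Ccnd3 rose by 0.20 ± 0.07 (adjusted p = 0.0346), and Ccne1 was not called (-0.03 ± 0.11). The call of Ccnd3 was lost under 8 alternatives, among them leaving out any 1 of the antimycin samples or piericidin replicate 2.

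Glycolysis genes were higher in 8 of 15 tested members and lower in none. Hk1, a hexokinase gene, had 241, 315 and 229 normalized counts with piericidin and 620, 580 and 571 with antimycin, close to its 622 to 666 with DMSO. Hk2, the inducible hexokinase gene, had 1075, 1112 and 970 against 1901, 1767 and 1769, both far above its 183 to 200 with DMSO. Pfkm, the muscle phosphofructokinase gene, rose by 1.20 ± 0.14. HIF targets were higher in 8 of 18 and lower in 2, with the glucose transporter gene Slc2a1 at 0.90 ± 0.08 and the histone demethylase gene Kdm3a at -0.91 ± 0.12. Txnip (chr3:96557957-96561883, plus strand), which encodes a glucose-induced inhibitor of glucose uptake, had 43.3, 63 and 40.4 normalized counts with piericidin and 6.26, 10.8 and 2.44 with antimycin. The antimycin samples were below all others, and the piericidin samples were at the DMSO level of 27 to 41 or above it. Angptl4, a lipoprotein lipase inhibitor gene, fell from 1887, 1929 and 1952 normalized counts to 534, 555 and 439.

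NRF2 targets were higher in 7 of 22 tested members (31.8%, beside 19.3% of all genes) and lower in 4 (18.2%, beside 17.9%). Hmox1, the heme oxygenase gene, had 2987, 3176 and 3097 normalized counts with piericidin and 5775, 5707 and 5723 with antimycin, and Gsta4, which detoxifies lipid aldehydes, rose by 1.19 ± 0.06. Nqo1, a standard NRF2 target, was not called (-0.06 ± 0.07). The metallothionein genes Mt2 and Mt1, whose products bind zinc and copper, rose by 1.29 ± 0.11 and 0.82 ± 0.10. Sterol synthesis genes were higher in 9 of 23 and lower in 3, with Srebf2, the gene of the factor that controls the pathway, at 0.75 ± 0.06, and Hmgcs1, an early enzyme gene, at -0.27 ± 0.07.

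Myogenic genes were higher in 7 of 11 tested members and lower in none (1 and 2 without antimycin replicate 1 and piericidin replicate 3). Myf5 had 606, 608 and 572 normalized counts with piericidin and 1333, 1418 and 1412 with antimycin, and Myod1 had 807, 782 and 828 against 1613, 1550 and 1385. These are the genes of the factors that set muscle identity. With DMSO the levels were 102 to 132 for Myf5 and 1233 to 1319 for Myod1, so piericidin was between the other groups for Myf5 and the lowest for Myod1. Myotube markers summed to 23.9 to 27.9 CPM with piericidin and 70.4 to 78.9 CPM with antimycin, nearly all of it from the actin gene Acta1. Myh4, Myh1 and Mybpc2, which define mature fibers, were at 0 in all 3 antimycin samples. In bulk samples fewer cells of a type and less RNA per cell cannot be told apart.

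The same contrast in redox-modified myoblasts and in myotubes shares no sample with that in control myoblasts. In LbNOX myoblasts 5102 of 11981 genes (42.6%) were called between antimycin and piericidin, in mitoLbNOX myoblasts 4511 (37.7%), and in myotubes 73 of 12592 (0.58%), 60 higher and 13 lower. The myotube count was 40 without piericidin replicate 2, 139 by DESeq2's Wald test and 274 with no count filter, then with 93 higher and 181 lower. In myotubes 1166 genes had an unadjusted p under 0.05. By a test of the difference from control myoblasts, 5063 genes differed in LbNOX myoblasts (42.3%, with 20.2% above and 22.1% below control). In mitoLbNOX myoblasts 3837 genes differed (32%, with 16.6% above and 15.5% below), and in myotubes 2953 (23.5%, with 11.4% above and 12% below). Of the 393 genes called at least 2-fold higher in control myoblasts, 55 were also called higher in LbNOX myoblasts and 125 were called lower there, beside 21.5% and 21% of all genes. In mitoLbNOX myoblasts 142 were called higher and 50 lower, beside 20% and 17.7%. In myotubes 4 of the 383 tested were called higher and 1 lower, beside 0.476% and 0.103%. Of the 302 genes called at least 2-fold lower in control myoblasts, 57 were called lower and 65 higher in LbNOX myoblasts (18.9% and 21.5%), shares near those of all genes. In mitoLbNOX myoblasts 88 were called lower and 48 higher (29.1% and 15.9%), and in myotubes 1 of the 290 tested was called lower and 7 higher.

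Amino acid synthesis genes, of which 18 were lower and 2 higher with antimycin in control myoblasts, had more members higher than lower in the other settings. In LbNOX myoblasts 17 of 24 members were higher with antimycin and 1 was lower, in mitoLbNOX myoblasts 14 were higher and 3 lower, and in myotubes 11 of 23 were higher, none lower and 12 not called. The difference of the contrast from control myoblasts was positive and called at 20, 18 and 15 members, and negative and called at 1 in each. Cth was at log2 fold changes of 0.98 ± 0.09 in LbNOX myoblasts, 0.59 ± 0.08 in mitoLbNOX myoblasts and 0.77 ± 0.15 in myotubes, against -1.43 ± 0.09 in control myoblasts. The differences were called in edgeR, with adjusted p-values of 8.82e-16, 3.86e-14 and 3.62e-09. Pycr1 was not called in any of the other settings, at 0.11, -0.11 and 0.11. For tRNA synthetases, 10 of 20 members were higher and 2 lower in LbNOX myoblasts, 12 higher and 2 lower in mitoLbNOX myoblasts and 10 higher and none lower in myotubes, against 2 higher and 11 lower in control myoblasts. The difference was called above control at 11, 12 and 14 members, and below it at 3 for LbNOX and none for the other settings.

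YAP targets were lower with antimycin in 6 of 10 members and higher in none in LbNOX myoblasts, and higher in 6 and lower in none in mitoLbNOX myoblasts. Ctgf had 3724 to 4543 normalized counts with piericidin and 2459 to 2546 with antimycin in LbNOX myoblasts, so its order was the reverse of that in control myoblasts (difference of the contrast -2.76, adjusted p = 1.69e-20). In myotubes Ctgf was at 322 to 356 and 263 to 346, with overlap. In mitoLbNOX myoblasts Ctgf rose from 3208 to 3363 normalized counts to 4134 to 4468, less than in control myoblasts (difference -1.62, adjusted p = 6.21e-15). In TGF-β and ID genes the difference from control myoblasts was negative and called at 10 of 13 members for LbNOX, 8 for mitoLbNOX and 10 of 12 for myotubes. It was positive and called at 2 members, both for mitoLbNOX, where the contrast itself had 6 members higher and 5 lower with antimycin.

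Most mitosis genes were lower with antimycin in each of the 3 myoblast lines. The counts were 19 of 25 with LbNOX and 22 of 25 with mitoLbNOX, with none higher in either. The difference from control myoblasts was called at 13 members for LbNOX, 5 above and 8 below control, and at 9 for mitoLbNOX, 7 above and 2 below. It was not called for Top2a (adjusted p = 0.709 and 0.343) or Plk1 (0.0826 and 0.799). In myotubes, which do not divide, none of 25 was called. Targets of p53 were higher in 24 of 29 members and lower in none with LbNOX, with Trp53inp1 at 3.43 ± 0.28 and Cdkn1a at 1.99 ± 0.05. Both differed from control myoblasts (adjusted p = 3.83e-08 and 1.73e-20).

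Of 11722 genes tested in both fits, 37 were called in all 4 settings, 4 of them higher and 2 lower with antimycin throughout. The rest of the 37 changed direction between settings. Whether more genes kept their direction than chance would give was not tested. The 4 were Gdf15, the nuclear non-coding RNA genes Malat1 and Neat1, and Mthfd2. Gdf15 rose by 1.59 in control, 1.52 in LbNOX and 2.37 in mitoLbNOX myoblasts and by 0.84 in myotubes, where its normalized counts went from 36.7 to 65.6 with piericidin to 84.2 to 99.9 with antimycin. Neat1, the scaffold of paraspeckles, had 1167 to 1494 normalized counts with piericidin and 2771 to 2825 with antimycin in control myoblasts, and piericidin was near the DMSO level of 1024 to 1264. The genes lower throughout were Cks2, a cyclin-dependent kinase partner, at log2 fold changes from -0.87 to -0.42, and the adhesion receptor gene Adgrg1, at -0.12 ± 0.05 in control myoblasts and from -1.02 to -0.38 elsewhere. The call of Adgrg1 in control myoblasts (adjusted p = 0.0486) was lost with any 1 sample other than piericidin replicate 1 left out.

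**Figure D4:**
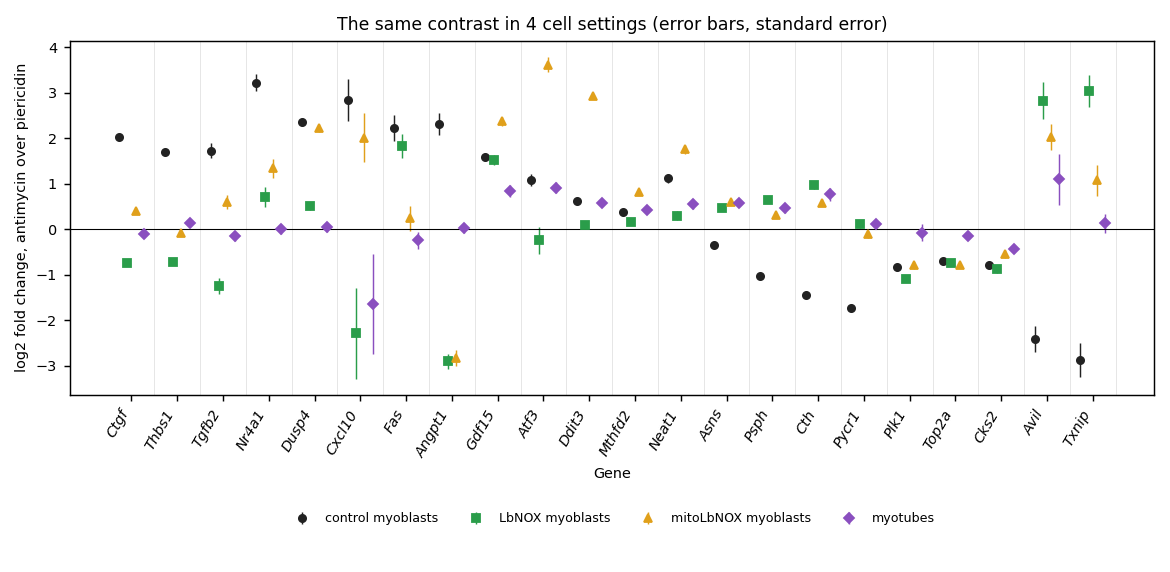
Log2 fold change of antimycin over piericidin with its standard error for 22 genes in control, LbNOX and mitoLbNOX myoblasts and in myotubes (3 samples per inhibitor in each). Cth is below 0 in control myoblasts and above 0 in the other settings, Ctgf changes sign between control and LbNOX myoblasts, and Gdf15 is above 0 in all 4.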

How the data were processed

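The authors quantified Smart-seq2 reads with kallisto 0.44 (after bcl2fastq 2.20.0.422) on the mouse transcriptome (GRCm38, Ensembl release 93) with the transgene sequences, and deposited the estimated counts per gene, unnormalized and as whole numbers. A gene was tested where all replicates of at least 1 group reached 16 counts. All 37 myoblast samples of the 10 hr treatments were fitted together with edgeR 4.0.16 (TMM, quasi-likelihood test, Benjamini-Hochberg adjustment, two-sided) in R 4.3.3. Myotube contrasts came from a like fit of 24 samples. These were control myoblasts and untransduced myotubes with DMSO, piericidin, antimycin or oligomycin. Standard errors are the absolute log2 fold change over the square root of F. Normalized counts use DESeq2 1.42.0 size factors. The feature CT010467.1 took 24.8% to 27.7% of all counts in the 9 control samples. Genes named were up to 12 per direction with the largest changes (mean of at least 50 normalized counts in the higher group, whatever the other, groups not overlapping, no predicted genes), up to 3 per direction in each list, 30 fixed genes, those called in all 4 settings, and up to 5 per direction of each difference between settings. The genes named for a promoter match fall outside this rule and were chosen after their values were seen. The members and lists were chosen with earlier results of these data known. Gene positions are from GENCODE M21 and promoters from RefSeq (both GRCm38), with windows for 8828 of 11976 tested symbols. Sequences were read with Python 3.11.15. The test was tried on simulated data. Alternatives are given in the closing section. Some genes and promoter sites are not reported here.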

Additional observations from a re-analysis of the deposited data

Results flagged for a closer look

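The antimycin against piericidin contrast differed, by a test of the difference itself in edgeR, at 5063 genes between LbNOX and control myoblasts, at 3837 between mitoLbNOX and control myoblasts and at 2953 between myotubes and control myoblasts. The genes below had the largest differences on the log2 scale, the other setting minus control myoblasts.

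For LbNOX, Txnip had a difference of 5.90, Avil 5.24, Sspo 4.64, the lubricin gene Prg4 4.56 and Slc7a3 4.24. The lower values were Ccl4 at -6.21, AA986860 at -5.53, the protease gene Pappa at -5.48, the vessel growth factor gene Angpt1 at -5.21 and Cxcl10 at -5.12. Txnip had 7.33 to 8.3 normalized counts with piericidin and 52.5 to 69.8 with antimycin in LbNOX myoblasts, the reverse of the order in control myoblasts. Angpt1 had 348 to 412 with piericidin and 30.5 to 60.2 with antimycin in LbNOX myoblasts, against 12.8 to 25.8 and 71.9 to 125 in control myoblasts. The large values of Ccl4, Pappa, Cxcl10 and Sspo rest on LbNOX samples of at most 10.2 normalized counts, some at 0. Prg4 had 0 to 3.11 with piericidin, and AA986860 had 0 to 2.19 with antimycin. Slc7a3 had 2.07 to 12.8 with piericidin and was not called between the inhibitors in LbNOX myoblasts (edgeR, adjusted p = 0.106). In control myoblasts Prg4 was not called (edgeR, adjusted p = 0.0543), but was called there under 5 alternatives.

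For mitoLbNOX, the higher differences were Sspo at 5.61, Avil at 4.44, Prg4 at 4.32, the protease gene Ecel1 at 4.19 and the carbonic anhydrase gene Car6 at 4.11. The lower ones were Angpt1 at -5.13, AA986860 at -3.83, the immediate early gene Egr1 at -3.68, the vasopressin receptor gene Avpr1a at -3.45 and Dusp2 at -3.43. Avil had 27.5 to 38.5 normalized counts with piericidin and 128 to 132 with antimycin in mitoLbNOX myoblasts, where control myoblasts had 189 to 292 and 28.1 to 56.4. Ecel1 had 0 to 1.81 with piericidin and Dusp2 0 to 14.8 with antimycin in mitoLbNOX myoblasts. Dusp2 was not called between the inhibitors in control or mitoLbNOX myoblasts (edgeR, adjusted p = 0.0513 and 0.34), but was called in control myoblasts under 4 alternatives, among them no count filter.

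For myotubes, the higher differences were Ptgfr at 4.98, Tnfrsf19 at 4.36, Dmd at 4.14, Mycl at 3.85 and Scara5 at 3.59, and the lower ones were Insc at -7.11, Tnik at -5.39, Igtp at -4.81, Prr9 at -4.79 and Cxcl10 at -4.48. None of the 10 was called between the inhibitors in myotubes. For Ptgfr, Tnfrsf19, Dmd, Mycl, Scara5, Tnik, Igtp and Insc at least 1 inhibitor group of the control myoblasts had a sample at 0. In myotubes Prr9 had 1.06 to 7.28 normalized counts with piericidin and 0 to 0.734 with antimycin, and Cxcl10 had 0 to 2.12 and 0 to 1.13.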

How the results depend on the processing

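The count for control myoblasts was 4455 and ran from 3756 with no count filter to 4552 with the replicate number as a block over the other filters, models and tools tried, and from 3890 to 4039 when 1 of the 6 samples was left out. It was 3767 in a model of the 6 samples alone. For myotubes, the 73 calls became 274 with no count filter (93 higher and 181 lower, against 60 and 13), 139 by DESeq2's Wald test and 25 in a model of the groups compared alone, and 40 to 61 with 1 sample left out, 40 without the replicate 2 piericidin sample. The cause was not tested. With 1 sample left out, the contrast had 4489 to 4736 calls in LbNOX and 3932 to 4126 in mitoLbNOX myoblasts. Its difference from control myoblasts then had 4697 to 4867 calls for LbNOX, 3469 to 3631 for mitoLbNOX and 2559 to 2796 for myotubes. Antimycin against DMSO had 7080 to 7245, and piericidin against DMSO 6836 to 7095. All other counts stayed within 1.5 times. With the replicate block, the counts were 5134 for LbNOX, 4611 for mitoLbNOX and 66 for myotubes, 5109, 3914 and 2949 for the differences, and 7643 and 7472 against DMSO. Deviations of same-numbered antimycin and piericidin samples correlated at 0.05, 0.43 and 0.35 over 8040 genes, and antimycin replicate 1 correlated better with piericidin replicate 3 (0.11), so the numbers were not taken as pairs. Leaving out CT010467.1 and Gm26917, chosen after seeing the data, gave 4483 calls. No named gene changed direction where it was called in the main model or in the alternative. Changes of sign in genes called in neither were not counted. Over all alternatives 172 of 3038 values of named genes lost the call and 15 gained one. Adgrg1 and Ccnd3 lost their calls under 8 alternatives each, Etfdh under 6 and Junb under 5. Prg4 gained a call under 5 and Dusp2 under 4. Of 1066 counts of called list members, 116 moved by more than 1.5 times, most of them from counts of 3 or fewer. Fold changes of genes near 0 counts in a group depend on the prior count of the model.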
